A study of Mus musculus with 18 samples.

Results

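Imprinted genes that act on growth were followed through mouse blood cell development in culture and through the reprogramming of fibroblasts. The list was given by name and held 10 genes, *Igf2*, *Igf2r*, *Cdkn1c*, *Phlda2*, *Grb10*, *Peg3*, *Mest*, *Dlk1*, *Plagl1* and *H19*. Of these, 9 were measured among the 20066 genes of the developmental stages and among the 20495 rows of the fibroblast libraries, and *H19* was not analysed here. The genes were listed by name and not by a threshold on measured values, but with earlier results of these data known.

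An imprinted gene is transcribed mainly from the copy inherited from 1 parent, in many cases because DNA methylation set in a germ line differs between the copies. Many of these genes are active in the embryo and placenta and become silent after birth. Genes expressed from the paternal copy often promote growth, with the hormone gene *Igf2* as the best known case, and genes expressed from the maternal copy often restrain it. In the mouse, *Igf2r*, *Cdkn1c*, *Phlda2* and *Grb10* are mainly maternally expressed, with *Grb10* paternally expressed in neurons, and *Igf2*, *Peg3*, *Mest*, *Dlk1* and *Plagl1* are paternally expressed. The data give the RNA of both copies together, so that nothing below refers to a single parental copy.

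The stages came from 1 mouse ESC line of strain 129 with a GFP reporter in the *Brachyury* gene, grown on MEFs and differentiated in vitro, with 2 replicates sequenced for each of 5 stages. These were ESC, mesoderm sorted as Bry+ Flk1- (MES), hemangioblasts sorted as Bry+ Flk1+ (HB), hematopoietic progenitors sorted as CD41+ (HP) and macrophages sorted as CD11b+ after further culture of CD41+ cells (MAC). The hemogenic endothelium between HB and HP was not analysed here. The fibroblast data were 8 single libraries of MEFs, labelled strain 129 and prepared at embryonic day 14.5, collected on day 12 and on day 21 without treatment (uFIB) or after introduction of Scl and Lmo2 (SL), of Scl, Fli1, Gata2 and Lmo2 (SFGL) or of Fli1, Gata2 and Lmo2 (FGL). The MEFs were either wild type or from iTal1-2A-GFP transgenic mice, which carry rtTA and a doxycycline-inducible TRE-TAL1 cassette, and the labels do not give the genotype of each library or say whether libraries came from separate cultures.

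Values are FPKM, the fragment numbers that the authors scaled to transcript length and to the aligned reads of a library, so that levels can be set against each other between genes of different length. The stage table holds 1 value per transcription start site (TSS) and stage in which the authors had combined the replicates. The start sites of a gene were summed here. Stage values therefore have no error, the number of reads behind them is not known, and no difference between stages was tested. The labelled stages showed their marker genes. The summed FPKM of 6 pluripotency genes was 739 in ESC and 0.189 in MAC. That of 6 mesoderm genes was 285 in MES and 309 in HB against 8.72 to 22.3 elsewhere. For 6 macrophage genes it was 1527 in MAC against 1.37 to 18.9 elsewhere. For 7 blood progenitor genes it was 5387 in HP against 1.90 to 137 in the other stages, but *Hbb-bh1* alone held 5182 in HP. All 7 were at least 2-fold higher in HP than in HB on FPKM + 1, where 8.86% of all genes were. From HP to MAC, 5 were lower and *Ptprc* was higher (5.66 and 94.0 FPKM), against 13.9% and 33.4% of all genes. Of 12 fibroblast marker genes, 11 were measured in the stages, and they summed to 351 FPKM in HB, 196 in HP and 48.2 in MAC. From HB to HP, 4 of 9 tested were at least 2-fold higher (*Col1a1*, *Col1a2*, *Col3a1* and *Postn*) and 2 lower, against 8.86% and 8.8% of all genes. From HP to MAC, 0 were higher and 8 lower, against 33.4% and 13.9%. Whether other cells than blood progenitors added to levels in HP was not tested. In these bulk samples, fewer cells of a type and less RNA per cell cannot be told apart.

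Promoters of *Phlda2*, *Grb10* and *Mest* are shown because *Phlda2* had the widest range of levels among the stages and because the use of start sites differed between stages for both other genes. Each is the 250 bases before a start site of RefSeq on GRCm38.p6, 5′ to 3′ on the gene's strand, with CG dinucleotides, the substrate of DNA methylation, in capitals. They lie at chr7:143502525-143502774 (- strand) for *Phlda2*, at chr11:12037421-12037670 and chr11:12027972-12028221 (both - strand) for the upstream and the downstream start of *Grb10*, and at chr6:30733256-30733505 and chr6:30737800-30738049 (both + strand) for the upstream and a downstream start of *Mest*.
Phlda2: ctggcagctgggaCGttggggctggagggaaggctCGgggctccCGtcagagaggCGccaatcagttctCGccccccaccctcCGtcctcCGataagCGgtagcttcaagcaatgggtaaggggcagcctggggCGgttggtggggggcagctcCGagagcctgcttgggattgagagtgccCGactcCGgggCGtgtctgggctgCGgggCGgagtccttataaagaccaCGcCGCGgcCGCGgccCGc
Grb10 upstream: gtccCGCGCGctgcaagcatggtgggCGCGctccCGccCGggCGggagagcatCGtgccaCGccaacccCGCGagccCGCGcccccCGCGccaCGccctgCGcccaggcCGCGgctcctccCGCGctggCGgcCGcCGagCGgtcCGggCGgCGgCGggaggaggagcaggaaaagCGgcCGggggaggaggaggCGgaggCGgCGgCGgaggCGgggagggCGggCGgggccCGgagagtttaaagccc
Grb10 downstream: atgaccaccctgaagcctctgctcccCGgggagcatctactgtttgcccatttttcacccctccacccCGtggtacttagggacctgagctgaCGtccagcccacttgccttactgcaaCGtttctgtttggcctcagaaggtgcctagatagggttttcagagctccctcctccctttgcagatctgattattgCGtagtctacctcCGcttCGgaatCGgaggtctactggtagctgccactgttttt
Mest upstream: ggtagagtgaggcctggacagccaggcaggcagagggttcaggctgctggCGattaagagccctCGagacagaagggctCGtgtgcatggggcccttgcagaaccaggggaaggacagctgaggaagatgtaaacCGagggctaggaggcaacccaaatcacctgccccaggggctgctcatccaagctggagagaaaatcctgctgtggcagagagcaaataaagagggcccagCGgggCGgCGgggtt
Mest downstream: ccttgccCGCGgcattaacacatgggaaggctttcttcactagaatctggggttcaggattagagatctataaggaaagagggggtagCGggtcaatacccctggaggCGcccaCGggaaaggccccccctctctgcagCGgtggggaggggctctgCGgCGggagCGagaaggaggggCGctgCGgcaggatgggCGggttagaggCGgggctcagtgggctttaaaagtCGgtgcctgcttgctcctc

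Counted over 300 bases, from 250 before to 50 after the start, the upstream *Grb10* promoter held 45 CG dinucleotides, more than 98.1% of the 32851 RefSeq promoters of that length, and the downstream one held 9, close to the median of 7. The *Phlda2* promoter held 26, and the letters TATAAA, looked for on both strands, began 30 bases before its start. It was the only 1 of 14 promoters of 8 listed genes with these letters, which 13.6% of all promoters held. GGAATG, the core of the motif bound by TEAD factors, was present in 4 of the 14, of which 3 belonged to *Igf2* and 1 to *Peg3*, against 14.7% of all promoters. AGATAA, a form of the GATA motif, was in none of the 14 and in 11.2% of all promoters. Such letters describe the sequence only. The upstream and downstream promoters of *Mest* held 8 and 17 CG dinucleotides.

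Across the stages, most of the genes were present in ESC, several reached their highest level in HB or HP, and 7 of the 9 were at least 2-fold lower in MAC than in HP, where 13.9% of all genes were. The plot of FPKM by stage shows that *Phlda2* was high up to HB, that *Grb10* and *Mest* were high up to HP and that *Igf2r* was highest in HP and MAC. *Igf2* was at 9.33 FPKM in ESC and had its highest level, 109, in HP. *Cdkn1c* was lowest in HP, and *Peg3* had its highest level in HB and stayed above 10 FPKM in every stage.

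**Figure D1:**
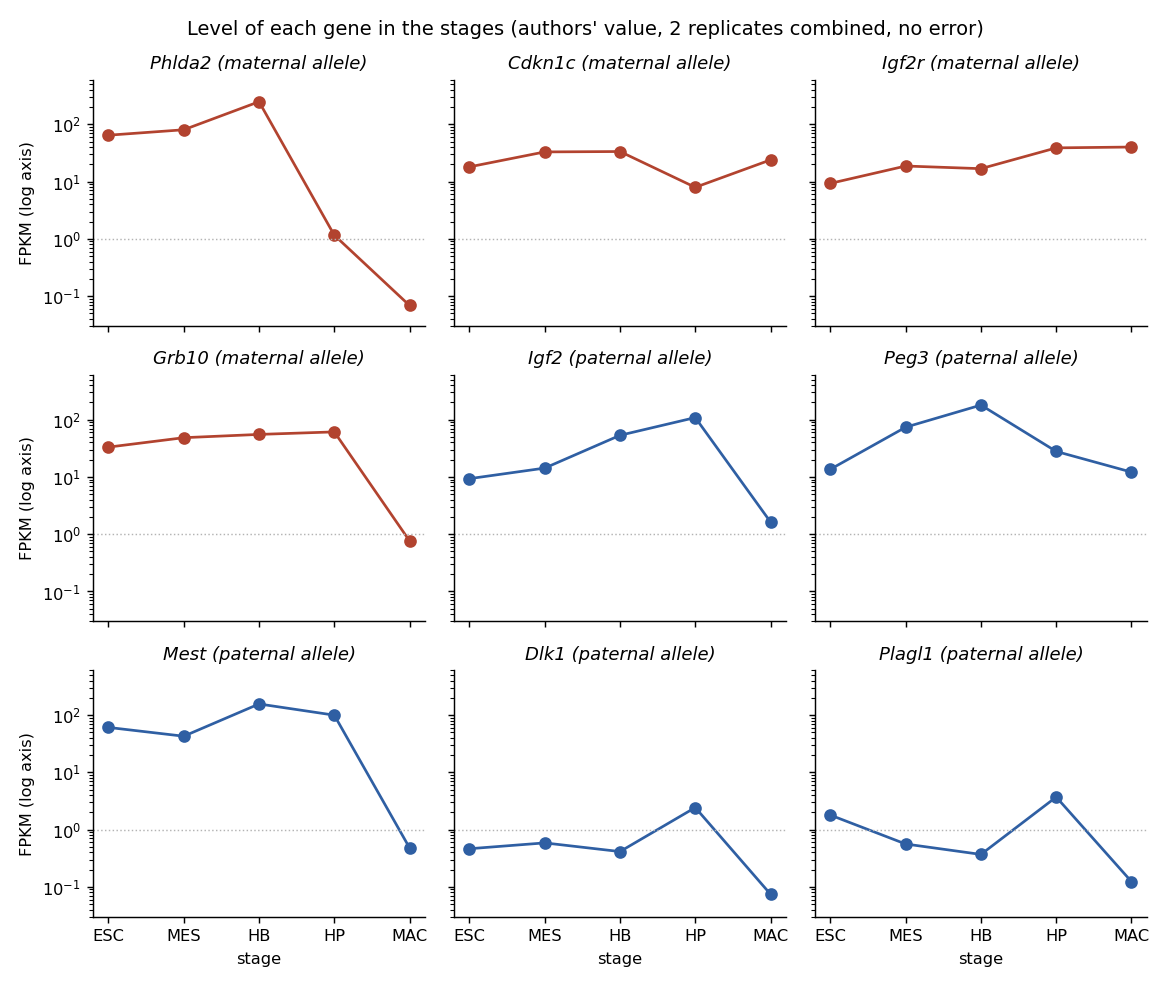
FPKM on a log axis (vertical) of 9 imprinted growth genes by stage from ESC to MAC (horizontal). Each point is the authors' value with 2 replicates combined and no error, red for mainly maternally and blue for paternally expressed genes, and the dotted line marks 1 FPKM. *Phlda2* goes from 248 FPKM in HB to 1.16 in HP, and *Grb10* and *Mest* lie under 1 FPKM in MAC.

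*Igf2* (chr7:142650768-142661035 in the table, GRCm38) encodes insulin-like growth factor 2, a fetal growth hormone. It measured 9.33 FPKM in ESC, then 14.3 (MES), 53.3 (HB), 109 (HP) and 1.63 (MAC). The level was thus highest in HP, where 162 genes were higher, and 66.5-fold lower in MAC. *Igf2r* (chr17:12682406-12769706) encodes the receptor that takes up IGF2 and delivers it for degradation. It measured 9.31 FPKM in ESC, then 18.7 (MES), 16.8 (HB), 38.8 (HP) and 40.1 (MAC), and was the only gene of the list with its highest FPKM in MAC. That MAC was above HP depends on scale. With all stages scaled to the same upper quartile, the change of *Igf2r* from HP to MAC was -0.67 on log2(FPKM + 1) in place of 0.05. Transcripts of hormone and receptor were therefore at a ratio (FPKM to FPKM) of 1.003 in ESC, then 0.763 (MES), 3.17 (HB), 2.80 (HP) and 0.0408 (MAC). *Airn*, a noncoding RNA transcribed against *Igf2r*, overlaps it, and although the study drew read profiles for each strand, whether the FPKM were estimated by strand is not given in the sources used here.

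Of the genes that restrain growth, *Cdkn1c* (chr7:143458339-143461050) encodes p57, an inhibitor of cyclin-dependent kinases. It measured 18.1 FPKM in ESC, then 33.0 (MES), 33.5 (HB), 7.94 (HP) and 23.9 (MAC), with HP as the lowest stage at 4.22-fold below HB. *Phlda2* (chr7:143501548-143502524), which encodes a small PH domain protein that limits the growth of the placenta, measured 64.5 FPKM in ESC, then 80.3 (MES), 248 (HB), 1.16 (HP) and 0.0686 (MAC). It ranked 56 among all genes in HB and 9571 in HP. Its level was 214-fold lower in HP than in HB. On log2(FPKM + 1) the change was -6.85, the lowest of all 10505 genes that reached 1 FPKM in HB or HP. By the plain ratio of FPKM it was not the lowest. *Mixl1* (80.4 FPKM in HB and 0.127 in HP) and *Mesp1* (42.9 and 0.00916), for example, differed by a larger ratio. *Grb10* (chr11:11930499-12037420), an adaptor that binds the insulin and IGF1 receptors and restrains their signal, measured 33.2 FPKM in ESC, then 48.4 (MES), 55.3 (HB), 61.1 (HP) and 0.765 (MAC). Its level differed by less than 2-fold between the first 4 stages and was 79.9-fold lower in MAC than in HP.

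*Peg3*, a zinc finger gene, measured 13.6 FPKM in ESC, then 73.9 (MES), 180 (HB), 27.9 (HP) and 12.1 (MAC). It was the only gene of the list that was at least 2-fold higher in MES than in ESC, and its level was 6.45-fold lower in HP than in HB. *Mest*, which encodes a protein of the hydrolase fold family, measured 60.7 FPKM in ESC, then 42.6 (MES), 156 (HB), 99.4 (HP) and 0.479 (MAC). HB and HP were its highest stages, and MAC was 207-fold below HP. *Dlk1*, which encodes a membrane protein related to Notch ligands, stayed low, with 0.463 FPKM in ESC, then 0.585 (MES), 0.413 (HB), 2.42 (HP) and 0.0743 (MAC). *Plagl1*, a zinc finger transcription factor known as Zac1, was also low, with 1.79 FPKM in ESC, then 0.560 (MES), 0.368 (HB), 3.70 (HP) and 0.123 (MAC). Both passed 2 FPKM in HP only.

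Counted as at least 2-fold apart on FPKM + 1 and reaching 1 FPKM where higher, 1 gene was higher in MES than in ESC (*Peg3*) and 0 were lower among the 8 of the 9 that reached 1 FPKM in either stage, where 6.94% and 7.3% of all genes tested were higher and lower. From MES to HB, 4 were higher (*Phlda2*, *Igf2*, *Peg3* and *Mest*) and 0 lower among the 7 that reached 1 FPKM, against 2.53% and 3.3% of all genes. The log2 changes of these 4 were 1.62, 1.83, 1.27 and 1.85, and each lay above the changes of at least 98.4% of all genes. From HB to HP, where all 9 reached 1 FPKM as they did from HP to MAC, 4 were higher (*Igf2r*, *Igf2*, *Dlk1* and *Plagl1*) and 3 lower (*Phlda2*, *Cdkn1c* and *Peg3*), against 8.86% and 8.8%. From HP to MAC, 7 were lower and *Cdkn1c* alone was higher, against 13.9% and 33.4% of all genes. The median change of the 9 genes on log2(FPKM + 1) was 0.53, 0.19, 0.14 and -1.67 at these successive steps, beside 0.00, 0.13, -0.13 and 0.45 over all genes tested.

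The step to MAC depends on scale, because FPKM summed to 381686 in MAC and to 180554 to 201844 in the other stages, and the genes that averaged 1 FPKM or more had a median change of 0.36 on log2(FPKM + 1). Relative to that median, the change from HP to MAC was -6.44 for *Mest*, -5.74 for *Igf2*, -5.49 for *Grb10*, -2.42 for *Plagl1*, -2.03 for *Dlk1*, -1.49 for *Peg3*, -1.37 for *Phlda2*, -0.31 for *Igf2r* and 1.12 for *Cdkn1c*. When all stages were scaled to the same upper quartile, 19.5% of all genes were higher and 24.7% lower in MAC. The same 7 genes were lower, the change of *Cdkn1c* was 0.79 in place of 1.48 and no longer reached 2-fold, and that of *Igf2r* was -0.67 in place of 0.05.

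Several of the genes have more than 1 start site in the table, and their profiles differed within a gene. The table gives a position for the gene but not for each start site, so that its identifiers could not be matched to the promoters above, and reads of shared exons are divided between start sites by estimation. *Igf2* had 3 start sites. TSS19115 held 87.9% of its FPKM in ESC, then 22.0% (MES), 30.4% (HB), 7.54% (HP) and 0% (MAC), while TSS19113 went from 0.0504% in ESC to 74.5%, 62.6%, 87.0% and 94.8%. In FPKM, TSS19115 was at 8.21 in ESC and 8.20 in HP, whereas TSS19113 was at 0.00471 in ESC and 94.6 in HP. The higher level of *Igf2* in HP than in ESC was thus found at TSS19113 and, by a smaller amount, at TSS19114 (1.12 and 5.96 FPKM).

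For *Grb10*, TSS3173 measured 11.5 FPKM in ESC, or 34.7% of the gene, and 0.332, 0.231, 0.408 and 0.150 FPKM at the later stages. TSS3174 measured 21.7, 48.1, 55.0, 60.7 and 0.614 FPKM in the same order. Outside ESC and MAC, TSS3173 made up less than 1% of the gene. *Mest* had TSS15936 at 43.2 FPKM in ESC, then 15.8 (MES), 59.9 (HB), 29.9 (HP) and 0.409 (MAC), and TSS15937 at 17.5, 26.8, 96.0, 69.5 and 0.0702. The first was the larger in ESC with 71.2% of the gene and the second was the larger in MES, HB and HP with 61.6% to 69.9%. *Dlk1* also had 2 start sites, of which 1 held at least 93.7% of the gene in every stage. The plot of start sites shows these shares, and without replicate values their error is not known.

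**Figure D2:**
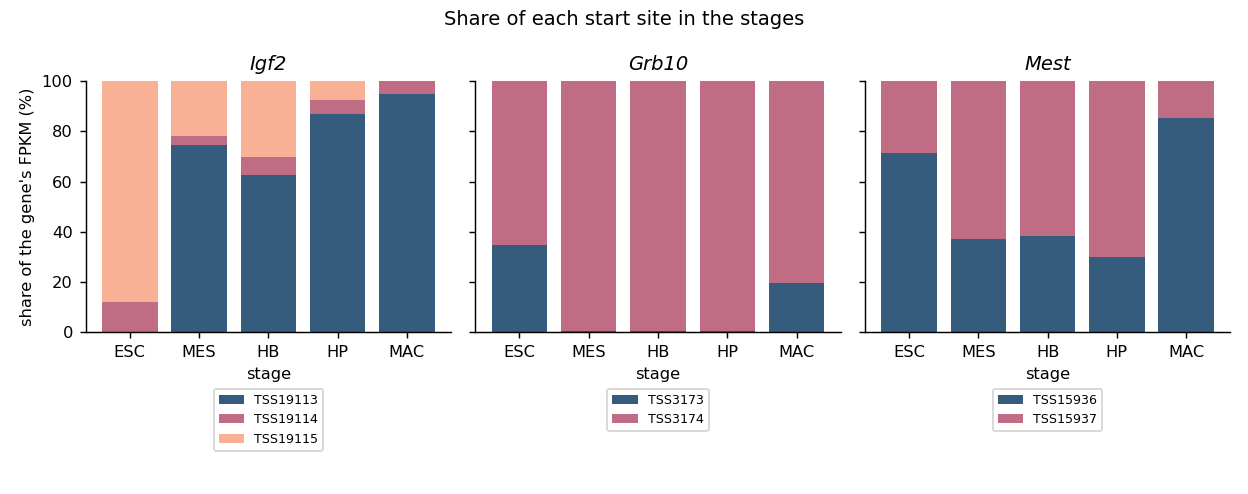
Share in percent of the FPKM of a gene (vertical) that each start site of the table held in each stage (horizontal) for *Igf2*, *Grb10* and *Mest*. Bars stack to 100% and colours stand for start sites, and the values come from the authors' combined replicates without an error. TSS19115 of *Igf2* holds 87.9% in ESC and 7.54% in HP, and TSS3173 of *Grb10* holds 34.7% in ESC and under 1% in MES, HB and HP.

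*Phlda2* and *Cdkn1c* belong to 1 imprinted domain of distal chromosome 7, and the genes around *Phlda2* were compared at the step from HB to HP. Within 250 kb to either side lay 9 other genes of the table, of which 4 reached 1 FPKM in HB or HP. *Cdkn1c*, whose midpoint is 42.8 kb away, was at least 2-fold lower in HP, with a log2 change of -1.95. *Nap1l4*, a histone chaperone gene at 28.8 kb on the other side, measured 70.6 FPKM in HB and 56.3 in HP, and *Cars*, a transfer RNA synthetase gene, measured 11.6 and 14.5. *Osbpl5* measured 1.25 and 2.44 FPKM. *Slc22a18*, the gene nearest to *Phlda2*, had 0.286 FPKM in HB, 0.155 in HP and 4.35 in MAC.

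**Figure D3:**
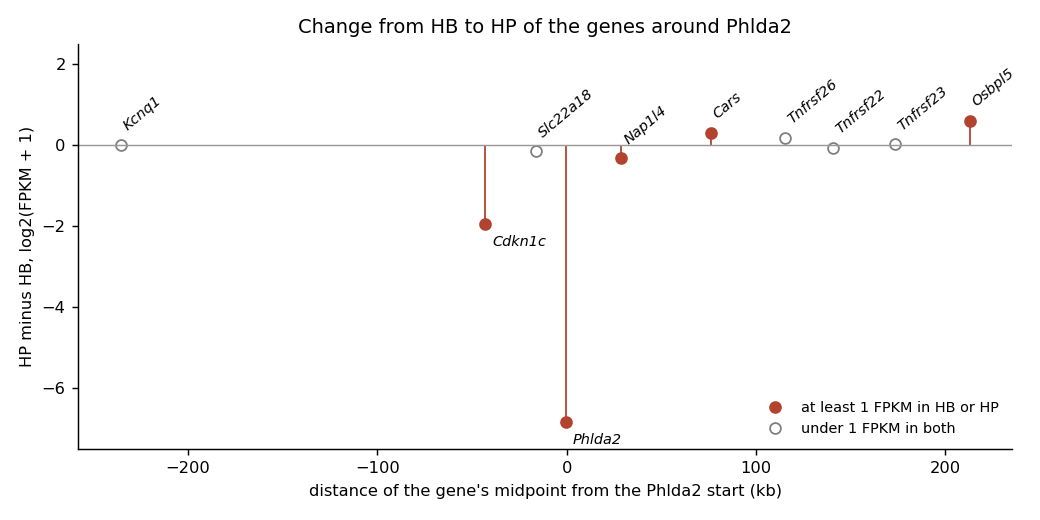
Difference of HP minus HB on log2(FPKM + 1) (vertical) against the distance in kb of each gene's midpoint from the start of *Phlda2* (horizontal) for the 10 genes of the table within 250 kb. Filled points reached 1 FPKM in HB or HP, open points did not, and there is no error. *Phlda2* lies at -6.85 and *Cdkn1c* at -1.95, and the 3 other filled points lie between -0.32 and 0.61.

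A list of 25 genes that share an imprinted domain with a listed gene had 19 in the table. From HB to HP, 7 of these had at least 1 FPKM and 0 were at least 2-fold higher or lower, where 8.86% and 8.8% of all genes were, with a median change of 0.03 on log2(FPKM + 1). Of 8 tested, 0 were higher and 3 lower in MES (*Ascl2*, *Ddc* and *Cobl*), against 6.94% and 7.3% of all genes. Of 5 tested, 1 was higher in HB (*Zim1*) and 0 lower, against 2.53% and 3.3%, and of 8 tested 1 was higher in MAC (*Slc22a18*) and 2 were lower (*Zim1* and *Ddc*), against 33.4% and 13.9%. *Copg2*, the neighbour of *Mest*, measured 10.4 FPKM in ESC, then 13.2 (MES), 11.2 (HB), 18.1 (HP) and 26.7 (MAC). Its change from HP to MAC, 0.54 on log2(FPKM + 1), was close to the median of 0.45 over all genes. Its highest FPKM in MAC, where *Mest* was lowest, therefore depends on scale. *Cd81* measured 50.9 to 62.4 FPKM, *Tssc4* 12.4 to 17.9 and *Nap1l4* 41.7 to 70.6 across the stages. *Dio3* and *Phactr2*, which pass 10 FPKM in fibroblasts only, had at most 1.20 and 3.29 FPKM in the stages.

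Of 38 other imprinted genes, 36 were in the table, and from HP to MAC 8 were at least 2-fold higher and 4 lower of 25 with at least 1 FPKM, counts close to the 33.4% and 13.9% of all genes. The median was 0.61 on log2(FPKM + 1), beside -1.67 for the 9 growth genes and 0.45 for all genes. Among genes that reached 10 FPKM in either stage, the lowest changes were those of *Nnat* (13.8 to 0.0318 FPKM), *Peg10* (88.3 to 13.2) and *Mcts2* (19.1 to 10.7), and the highest those of *Snurf* (14.7 to 47.7), *H13* (6.89 to 23.3) and *Sgce* (8.84 to 26.9). From HB to HP, 4 of 26 were higher and 7 lower, against 8.86% and 8.8% of all genes, with *Slc38a4* (166 to 34.4 FPKM), *Zdbf2* (18.1 to 4.58) and *Peg10* (231 to 88.3) at the low end and *Nnat* (4.74 to 13.8), *Gab1* (6.33 to 13.1) and *Gnas* (169 to 237) at the high end. From MES to HB, 2 of 25 were higher and 4 lower, against 2.53% and 3.3%, with *Slc38a4* (56.0 to 166), *Gnas* (124 to 169) and *Ube3a* (23.1 to 30.2) at the high end and *Snurf* (42.0 to 14.9), *Atp10a* (10.8 to 3.86) and *Nnat* (11.8 to 4.74) at the low end. From ESC to MES, 1 of 26 was higher and 2 were lower, against 6.94% and 7.3%, with *Gab1* (57.1 to 9.91), *Nnat* (21.0 to 11.8) and *Sfmbt2* (13.3 to 8.28) at the low end and *Atp10a* (4.55 to 10.8), *Impact* (83.2 to 150) and *Zdbf2* (12.9 to 23.4) at the high end. *Slc38a4*, an amino acid transporter gene, thus had its highest level in HB as *Phlda2*, *Peg3* and *Mest* did. *Cdkn1c* was also highest in HB, but with 33.5 FPKM beside 33.0 in MES.

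Relatives of the listed genes that are not imprinted had other profiles. *Phlda3*, which encodes a PH domain protein like *Phlda2*, measured 65.4 FPKM in ESC, then 24.1 (MES), 22.3 (HB), 22.0 (HP) and 59.0 (MAC), and *Phlda1* measured 1.64 to 10.1. *Cdkn1a*, the p21 inhibitor gene of the *Cdkn1c* family, was highest in MAC with 99.5 FPKM against 8.52 to 23.3 in the other stages, whereas *Cdkn1b* stayed between 8.25 and 17.9. The other growth factor gene *Igf1* measured at most 0.120 FPKM in ESC, MES and HB, 4.68 in HP and 182 in MAC, so that MAC had 1.63 FPKM of *Igf2* and 182 of *Igf1*. *M6pr*, the second mannose 6-phosphate receptor gene beside *Igf2r*, measured 25.4 to 40.5 FPKM up to HP and 124 in MAC. *Grb7* measured 11.2 FPKM in ESC and 0.0596 in MAC, *Grb14* at most 1.16 and *Plagl2* 0.544 to 6.06. Of the 11 relatives, 8 were tested from HP to MAC, with 4 at least 2-fold higher and 1 lower beside 33.4% and 13.9% of all genes, and 9 from HB to HP, with 3 higher and 0 lower beside 8.86% and 8.8%. From ESC to MES 0 were higher and 3 lower of 7 tested, beside 6.94% and 7.3%, and from MES to HB 1 was higher and 1 lower of 9, beside 2.53% and 3.3%.

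Among 10 further genes of the IGF pathway, the signalling receptor gene *Igf1r* was highest in HP with 12.2 FPKM against 3.05 to 6.18 elsewhere, as was the substrate gene *Irs2* with 39.6 against 4.58 to 11.2. *Insr*, the insulin receptor gene, measured 2.38 FPKM in ESC and 11.4 in MAC, and *Irs1* 5.71 in HB and 0.0145 in MAC. Of the binding protein genes, *Igfbp2* measured 49.6 to 79.8 FPKM up to HP and 3.53 in MAC, *Igfbp3* 139 in MES and 5.95 in HB, and *Igfbp4* 7.65 in ESC and 75.4 in HB. *Igfbp5*, *Igfbp6* and *Igfbp7* stayed at or below 1.17 FPKM. At the successive steps 9, 7, 8 and 8 of the 10 were tested, of which 3, 1, 2 and 0 were at least 2-fold higher, beside 6.94%, 2.53%, 8.86% and 33.4% of all genes. In the same order 1, 1, 2 and 4 were lower, beside 7.3%, 3.3%, 8.8% and 13.9%.

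The genes whose profile was most like that of each listed gene were found by Pearson's r over 13 values, 5 stages and 8 fibroblast libraries, on log2(FPKM + 1) centred within each table, among 6981 genes. These were *Dusp9* (r = 0.970) and *Cbwd1* (0.963) for *Phlda2*, *Mex3c* (0.979) and *Tbrg1* (0.931) for *Cdkn1c*, and *D5Ertd579e* (0.943) and *Dcaf8* (0.926) for *Igf2r*. For *Grb10* they were *Fam83d* (0.984) and *Tro* (0.983), for *Igf2* *Tspan12* (0.959) and *Ccdc8* (0.936), for *Peg3* *6330403K07Rik* (0.943) and *Zfp281* (0.927), and for *Mest* *Cbx5* (0.964) and *Nup62cl* (0.962). Among the 7 listed genes that reached 10 FPKM in a stage, without *Dlk1* and *Plagl1*, r was highest between *Grb10* and *Mest* (0.823) and between *Grb10* and *Igf2* (0.793), and lowest between *Igf2r* and *Phlda2* (-0.718). The 13 values share libraries and scaling, and these r are descriptions of the 13 values only.

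The fibroblast libraries ask how the same genes behave when blood transcription factors are introduced. *Tal1*, the gene also called *Scl*, measured 62.0 and 347 FPKM in SL on days 12 and 21, 58.0 and 119 in SFGL, 0.0414 and 0.415 in uFIB, but also 7.04 in the library labelled FGL of day 12. *Fli1* measured 3.35 FPKM in the library labelled FGL of day 21, beside 3.02 in uFIB, and 8.29 in that of day 12, beside 3.43. *Lmo2* (36.2 and 66.5 FPKM) and *Gata2* (21.9 and 35.1) were above uFIB (0.499 and 2.28, and 1.80 and 2.13) in both libraries labelled FGL, as their label says. In SL, whose label names neither, *Fli1* measured 46.7 and 34.4 FPKM and *Gata2* 68.8 and 62.6. In SFGL they measured 41.2 and 27.8, and 110 and 132. A factor was thus also raised where the label does not name it, and whether its RNA came from an introduced copy was not tested. On day 12, *Fli1* with the label FGL was above uFIB but well below the 41.2 FPKM of SFGL, whose label also names it. The libraries labelled FGL departed from their label in *Tal1* on day 12 and in *Fli1* on day 21. They are therefore called the libraries labelled FGL, and the results for SL and SFGL were also calculated without them. All 12 fibroblast markers were above 1 FPKM in all 8 libraries. Levels were compared by limma on log2(FPKM + 1) in the 11991 genes that averaged 1 FPKM or more, with treatment and day as terms, 1 library per treatment and day, 3 residual degrees of freedom and adjustment over all genes at 0.05. With 1 library per treatment and day, the residual spread is how unlike the differences between treatments were on the 2 days. The adjusted p-values rest on that spread and not on one between replicate libraries or cultures of a treatment. All 3 treatments share the uFIB libraries.

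**Figure D4:**
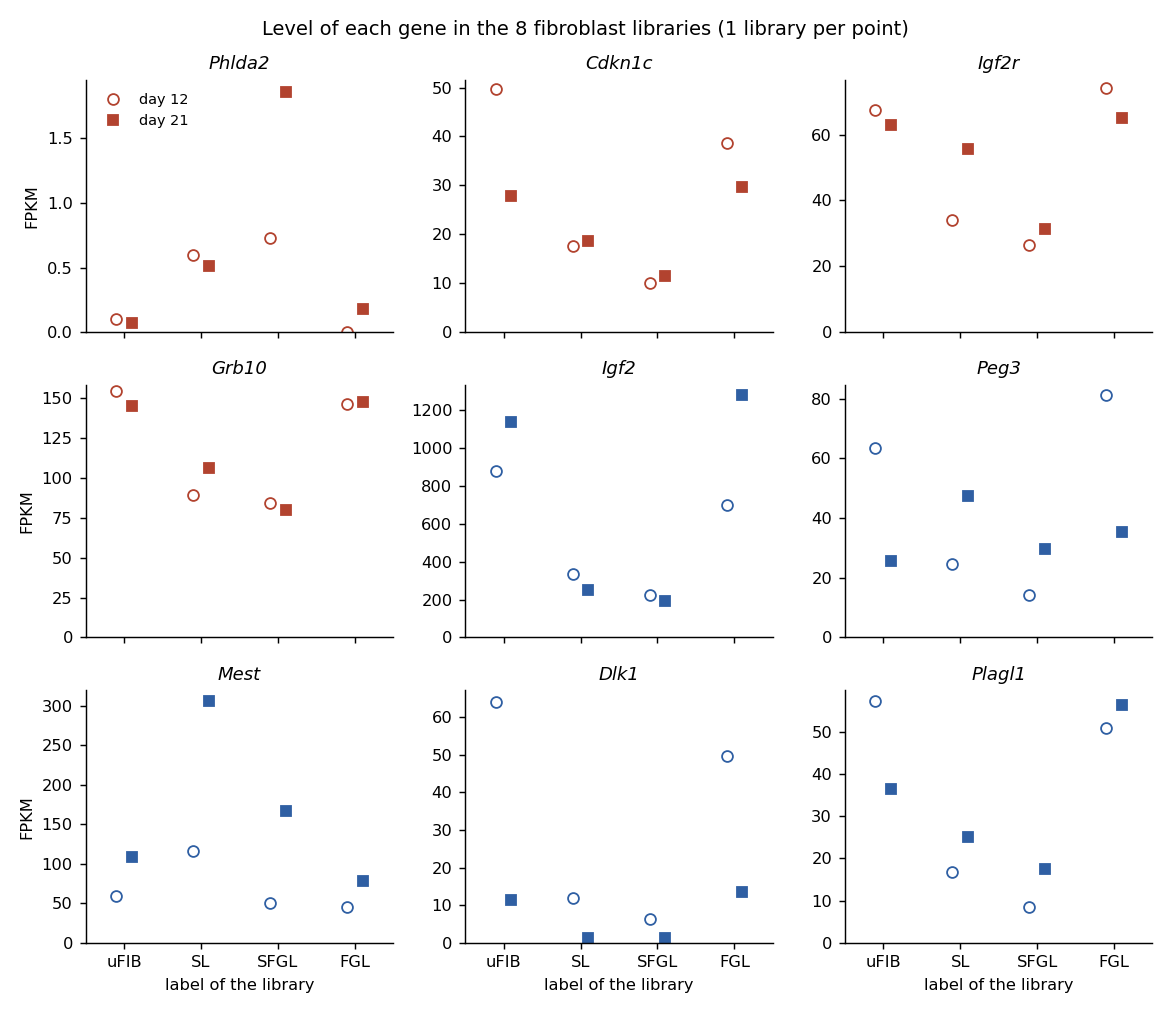
FPKM (vertical, linear, from 0) of 9 imprinted growth genes in uFIB and in the libraries labelled SL, SFGL and FGL (horizontal). Each point is 1 library, open circles for day 12 and filled squares for day 21, and colours are as in the plot of FPKM by stage. The 4 SL and SFGL points of *Igf2* lie between 192 and 336 FPKM, below all 4 others at 701 to 1279.

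Untreated MEFs had high levels of most of these genes, and 6 of the 8 genes tested fell with SFGL and 4 with SL, while *Mest* rose with SL. Among all genes tested, 30.8% fell and 28% rose with SFGL, and 27.1% fell and 25.4% rose with SL. The median difference of the 8 genes was -1.42 on log2(FPKM + 1) with SFGL and -0.81 with SL, beside -0.03 over all genes in both cases. *Phlda2*, the 9th gene, had a mean of 0.505 FPKM and was not in the fit. With the label FGL, 0 of the 8 genes rose or fell by limma at an adjusted p under 0.05, where 2 of all genes rose (0.0167%) and 0 fell (0%), and 466 of all genes had an unadjusted p under 0.05.

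*Igf2* ranked 49 and 20 among all genes of the untreated MEFs, at 879 FPKM on day 12 and 1141 on day 21. It measured 336 and 249 FPKM in SL, 224 and 192 in SFGL and 701 and 1279 in the libraries labelled FGL. All SL and SFGL values lay below all others, and *Igf2* fell by 1.79 ± 0.32 (SE) on log2(FPKM + 1) with SL (limma, adjusted p = 0.00732) and by 2.27 ± 0.32 with SFGL (adjusted p = 0.00268). *Igf2r* measured 67.4 and 62.8 FPKM in uFIB, 34.0 and 55.6 in SL, 26.5 and 31.4 in SFGL and 74.3 and 65.0 with the label FGL. It fell by 1.15 ± 0.23 with SFGL (limma, adjusted p = 0.00813), and its difference with SL was -0.57 ± 0.23 (adjusted p = 0.0827). The SFGL call was lost without the uFIB or the SFGL library of day 12 (limma, adjusted p = 0.0577 and 0.0534), and without the SL library of day 21 the SL difference of -0.93 passed the threshold (adjusted p = 0.0259). Without the SL or the uFIB library of day 12 the SL difference was -0.21 or -0.40 (limma, adjusted p = 0.418 and 0.346). The ratio of *Igf2* to *Igf2r* FPKM was 13.1 and 18.2 in uFIB, 9.89 and 4.48 in SL, 8.48 and 6.10 in SFGL and 9.44 and 19.7 with the label FGL, so that the groups overlapped on day 12 of the label FGL.

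*Cdkn1c* measured 49.6 and 27.9 FPKM in uFIB, 17.5 and 18.7 in SL, 10.1 and 11.5 in SFGL and 38.7 and 29.6 with the label FGL. It fell by 1.003 ± 0.25 with SL (limma, adjusted p = 0.0215) and by 1.69 ± 0.25 with SFGL (adjusted p = 0.00315). *Grb10* measured 154 and 145 FPKM in uFIB, 89.4 and 106 in SL, 84.4 and 79.7 in SFGL and 146 and 147 with the label FGL, the narrowest spread between days of the list. It fell by 0.61 ± 0.12 with SL (limma, adjusted p = 0.00908) and by 0.86 ± 0.12 with SFGL (adjusted p = 0.00245). Both SL calls were lost without the uFIB library of day 12, at -0.62 for *Cdkn1c* and -0.54 for *Grb10* (limma, adjusted p = 0.0939 and 0.0674), and without the SL library of day 12, at -0.79 and -0.46 (adjusted p = 0.131 and 0.0586).

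*Phlda2* was near 0 in untreated MEFs, with 0.103 and 0.0721 FPKM in uFIB, 0.593 and 0.509 in SL, 0.727 and 1.86 in SFGL and 0 and 0.176 with the label FGL. All 4 SL and SFGL values lay above all others, which also held for 29.3% of the 11991 genes tested, a set without *Phlda2*. Multiplied by the relative depth of each library, estimated from the steps between low values, the FPKM were whole multiples of the smallest to within 0.0001 of it: 1 and 1 in uFIB, 9 and 3 in SL, 8 and 14 in SFGL and 0 and 1 with the label FGL. So few steps mean that the untreated level was at the limit of detection, and no fold is given. Without the filter on low values the difference with SFGL was 1.03 on log2(FPKM + 1) (limma, adjusted p = 0.0142) and that with SL was 0.51 (adjusted p = 0.114).

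*Dlk1* had the largest differences of the list. It measured 63.9 and 11.3 FPKM in uFIB, 11.8 and 1.23 in SL, 6.38 and 1.23 in SFGL and 49.5 and 13.6 with the label FGL. On each day SL and SFGL were at 9.99% to 18.5% of uFIB, and *Dlk1* fell by 2.40 ± 0.23 with SL (limma, adjusted p = 0.00139) and by 2.80 ± 0.23 with SFGL (adjusted p = 0.000681). Neither call held in a model without day (limma, adjusted p = 0.153 and 0.0957). *Plagl1* measured 57.3 and 36.5 FPKM in uFIB, 16.7 and 25.2 in SL, 8.42 and 17.6 in SFGL and 50.9 and 56.4 with the label FGL. It fell by 1.82 ± 0.37 with SFGL (limma, adjusted p = 0.00901), and its difference with SL was -1.12 ± 0.37 (adjusted p = 0.0501), just above the threshold. The SFGL call was lost without the SFGL library of day 12 (-1.34, adjusted p = 0.0520), and the SL difference passed the threshold without the uFIB library of day 21 (-1.72, adjusted p = 0.0135) or without either SFGL library (adjusted p = 0.0408 and 0.0407), and with upper quartile scaling (-1.15, adjusted p = 0.0486). It was -0.52 without the uFIB library of day 12 and -0.92 without the SL library of day 12 (limma, adjusted p = 0.216 and 0.224).

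*Mest* was the only one of the 8 genes tested that rose. It measured 59.5 and 109 FPKM in uFIB, 116 and 307 in SL, 49.9 and 167 in SFGL and 45.4 and 78.9 with the label FGL. It rose by 1.22 ± 0.25 with SL (limma, adjusted p = 0.0109), a call that was lost without the uFIB library of day 21 (1.0003, adjusted p = 0.0661) or the SL library of day 21 (1.08, adjusted p = 0.0704) and in a model without day (adjusted p = 0.207). Its difference with SFGL was 0.18 ± 0.25 (adjusted p = 0.557). *Peg3* measured 63.4 and 25.5 FPKM in uFIB, 24.5 and 47.2 in SL, 14.0 and 29.6 in SFGL and 81.2 and 35.2 with the label FGL. On day 12 SL and SFGL were below uFIB and on day 21 they were above it, and the differences over both days were -0.24 ± 0.67 with SL (limma, adjusted p = 0.788) and -0.94 ± 0.67 with SFGL (adjusted p = 0.272). The SL difference turned to 0.53 without the uFIB library of day 12 and to 0.46 without the SL library of day 12. *Zim1*, next to *Peg3* and picked after its values were seen, measured 4.01 and 3.38 FPKM in uFIB, 2.29 and 6.43 in SL and 1.34 and 3.72 in SFGL.

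**Figure D5:**
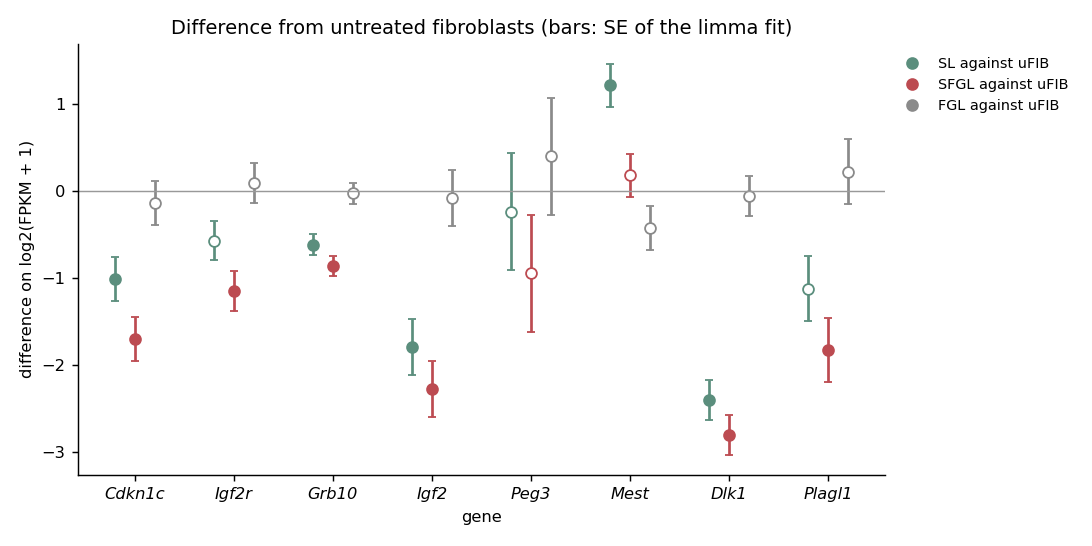
Difference from uFIB on log2(FPKM + 1) (vertical) for 8 imprinted growth genes (horizontal) with SL (green), SFGL (red) and the label FGL (grey). Points are limma estimates over day 12 and day 21, bars are 1 SE, and filled points have an adjusted p under 0.05. Filled points are found for 5 genes with SL and 6 with SFGL and for none with the label FGL, and the *Mest* point of SL is the only filled one above 0.

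In 5 of the 8 genes tested, *Cdkn1c*, *Igf2r*, *Grb10*, *Igf2* and *Plagl1*, all 4 SL and SFGL values lay below all 4 values of uFIB and the label FGL, which held for 31.1% of all genes, and for 0 of the 8 they lay above, which held for 29.3%. The 12 fibroblast markers moved with these results: their summed FPKM was 11365 and 9488 in uFIB, 3632 and 3054 in SL, 2926 and 2293 in SFGL and 9833 and 9176 with the label FGL, and 11 of the 12 fell with SL and with SFGL. SL was thus at 32.0% and 32.2% of uFIB and SFGL at 25.7% and 24.2%. On day 12 the share of uFIB that remained in SFGL was 25.5% for *Igf2*, 20.4% for *Cdkn1c*, 39.3% for *Igf2r*, 54.7% for *Grb10*, 9.99% for *Dlk1*, 14.7% for *Plagl1*, 22.1% for *Peg3* and 83.9% for *Mest*. On day 21 these shares were 16.8% for *Igf2*, 41.4% for *Cdkn1c*, 50.01% for *Igf2r*, 55.0% for *Grb10*, 10.9% for *Dlk1*, 48.1% for *Plagl1*, 116% for *Peg3* and 153% for *Mest*. The shares in SL on days 12 and 21 were 38.2% and 21.8% for *Igf2*, 35.3% and 67.0% for *Cdkn1c*, 50.4% and 88.6% for *Igf2r*, 57.9% and 73.3% for *Grb10*, 18.5% and 10.9% for *Dlk1*, 29.2% and 69.0% for *Plagl1*, 38.6% and 185% for *Peg3* and 195.3% and 281% for *Mest*. Only *Mest* in SL and, on day 21, *Mest* and *Peg3* with both labels were above uFIB. The 7 blood progenitor markers, all of which rose with SL and SFGL, summed to 21.1 and 26.1 FPKM in uFIB, 214 and 533 in SL and 271 and 401 in SFGL. With the label FGL they summed to 48.3 on day 12, or 229% of uFIB, and to 26.0 on day 21. Part of the SL and SFGL sums is *Tal1*, which was itself introduced. Without it, in a sum added after seeing the data, the other 6 were at 21.04 and 25.7 FPKM in uFIB and 152 and 186 in SL. They were at 213 and 283 in SFGL and at 41.3 and 25.9 with the label FGL. Of the 6 macrophage markers, 4 were tested and rose with SL and SFGL. The sum of the 6 was 9.86 and 9.43 FPKM in uFIB, 44.8 to 103 in SL and SFGL and 18.0 and 8.42 with the label FGL. Of 8 visceral endoderm markers, 7 were under 1 FPKM in every library, and with *Apoa1*, which rose with SL and SFGL, they summed to 0.501 and 0.475 FPKM in uFIB, 4.28 and 30.8 in SL and 1.97 and 21.9 in SFGL. The part of these markers in the results was not tested.

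Between day 12 and day 21, *Dlk1* fell by 2.11 ± 0.16 (limma, adjusted p = 0.0151) and *Mest* rose by 1.19 ± 0.18 (adjusted p = 0.0410), where 1.43% of all genes fell and 1.19% rose. *Dlk1* was lower on day 21 with each of the 4 labels, by 5.67-fold in uFIB, 9.64-fold in SL, 5.21-fold in SFGL and 3.65-fold with the label FGL. *Mest* was higher by 1.84-fold, 2.64-fold, 3.35-fold and 1.74-fold in the same order. Neither call held without the libraries labelled FGL, where the adjusted p was 0.0717 for *Dlk1* and 0.101 for *Mest*, or when any 1 library of SL, SFGL or the label FGL was left out (adjusted p from 0.0642 to 0.0707 for *Dlk1* and from 0.0976 to 0.160 for *Mest*). That of *Mest* was also lost when either uFIB library was left out (0.0671 and 0.0666). The median over the 8 genes was 0.08 on log2(FPKM + 1), beside -0.06 over all genes.

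Of the genes that share a domain with a listed gene, 12 were tested in the fibroblasts, of which 1 rose and 3 fell with SL and 1 rose and 6 fell with SFGL, where 25.4% of all genes rose and 27.1% fell with SL and 28% rose and 30.8% fell with SFGL. *Nap1l4* rose in both, by 0.61 ± 0.12 with SL (limma, adjusted p = 0.0101) and 0.74 ± 0.12 with SFGL (adjusted p = 0.00420), while *Cdkn1c*, on the other side of *Phlda2*, fell. *Cd81* fell by 0.39 ± 0.12 with SL and fell by 0.47 ± 0.12 with SFGL (limma, adjusted p = 0.0372 and 0.0185). With SFGL, *Phactr2*, which adjoins *Plagl1*, fell by 0.63 ± 0.10 (limma, adjusted p = 0.00375) and *Dio3*, in the *Dlk1* domain, by 1.31 ± 0.34 (adjusted p = 0.0200). *Copg2* measured 10.6 and 11.8 FPKM in uFIB and 12.5 to 14.0 in SL and SFGL, and *Tssc4* 20.1 to 20.3 and 20.7 to 25.1, with adjusted p of 0.122 or more for both. Of 21 other imprinted genes tested, 2 rose and 10 fell with SL and 1 rose and 12 fell with SFGL, beside the same shares of all genes.

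In the IGF pathway, 7 of 10 genes fell and 0 rose with SL, and 8 fell and 1 rose with SFGL, beside 27.1%, 25.4%, 30.8% and 28% of all genes in this order, with medians of -1.41 and -1.62 on log2(FPKM + 1). *Irs1* fell by 2.31 ± 0.10 with SL and fell by 2.76 ± 0.10 with SFGL (limma, adjusted p = 0.00105 and 0.000491). The binding protein genes had higher levels in uFIB, and *Igfbp3* measured 939 and 490 FPKM in uFIB, 164 and 25.0 in SL and 119 and 35.3 in SFGL. *Igfbp5* fell by 3.51 ± 0.60 with SL and fell by 4.44 ± 0.60 with SFGL (limma, adjusted p = 0.00608 and 0.00225). *Igfbp2*, *Igfbp6*, *Igfbp7* and *Insr* also fell in both, *Igfbp4* fell with SFGL only by the threshold, and *Irs2* passed it in neither. *Igf1r* rose by 0.79 ± 0.24 with SFGL (limma, adjusted p = 0.0346). With the label FGL 0 of the 10 passed the threshold, and between the days *Igfbp6* alone fell.

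Among the relatives, 3 of 9 tested rose and 3 fell with SL and with SFGL, where 25.4% and 28% of all genes rose and 27.1% and 30.8% fell. *Igf1* measured 44.5 and 79.7 FPKM in uFIB, 16.0 and 19.5 in SL and 7.41 and 12.1 in SFGL, and fell by 1.70 ± 0.20 with SL and fell by 2.53 ± 0.20 with SFGL (limma, adjusted p = 0.00221 and 0.000672), the same direction as *Igf2*. *Cdkn1a* rose by 0.41 ± 0.12 and 0.60 ± 0.12 (limma, adjusted p = 0.0326 and 0.00780) where *Cdkn1c* fell, and *Plagl2* rose by 1.59 ± 0.11 and 1.56 ± 0.11 (adjusted p = 0.00105 and 0.000551) where *Plagl1* fell with SFGL. *M6pr* rose by 0.65 ± 0.13 and 0.84 ± 0.13 (limma, adjusted p = 0.0100 and 0.00343). *Grb14* and *Phlda3* fell in both, and *Cdkn1b* and *Phlda1* passed the threshold in neither.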

How the data were processed

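RNA-seq of 18 mouse samples was used, 10 of stages and 8 of MEFs, grouped by their labels. The authors' deposited FPKM values were used as deposited. According to the study's methods and the submitters' processing notes, stage reads were aligned uniquely to mm10 (GRCm38), duplicates were removed and Cufflinks combined 2 replicates into 1 value per TSS, while MEF reads went through TopHat and Cufflinks, with 1 value per gene and library. Versions are not given in the sources used here. Removing duplicates can lower the highest values, and the tables were scaled separately, so that levels were compared within a table. Of the stage table, 1 column that matches no sample here was not used.

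TSS values were summed per gene. Stage differences were described on log2(FPKM + 1), counted at 2-fold with at least 1 FPKM. MEF differences were tested with limma 3.58.1 in R 4.3.3 (trend in the variance, Benjamini-Hochberg adjustment) on log2(FPKM + 1), which understates changes of low genes. Depth is unknown, since FPKM hold no counts, and no count test or counting interval was used. Low values of at most 0.3 FPKM gave an estimate of the relative depth of the MEF libraries, 0.587 to 1.56 of uFIB day 12, from the step that 15.0% to 19.0% of low genes shared. Both the fold counts and limma were tested on simulated data. Alternatives were other pseudocounts, fold and FPKM limits, upper quartile scaling, the highest TSS, models without day or trend, and leaving out libraries.

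Members and lists were chosen with earlier results of these data known. Named genes are the 10 listed genes, the 2 genes with the highest r to each listed gene that reaches 10 FPKM in a stage, the genes of the domain, relatives and IGF pathway lists that reach 10 FPKM, and the 3 highest and 3 lowest changes of other imprinted genes at each step among those with 10 FPKM. Genes outside this rule are named where they make up a small count. Positions count from 1 on GRCm38; the table's starts, taken as counting from 0, matched RefSeq for 9053 of 18522 genes. Promoters came from RefSeq (GRCm38.p6) for 8 of 10 genes. Python 3.11.15, NumPy 2.4.6, pandas 2.3.3 and matplotlib 3.10.9 were used.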

Additional observations from a re-analysis of the deposited data

Results flagged for a closer look

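In 4 cases a listed gene that averaged 1 FPKM or more differed from uFIB in opposite directions on day 12 and day 21, by at least 0.2 on log2(FPKM + 1) on each day, with 1 library per treatment and day. *Peg3* was lower by 1.34 with SL on day 12 (a difference of -1.34) and higher on day 21 (0.86), and with SFGL the values were -2.10 and 0.21. In *Mest* the differences with SFGL were -0.25 and 0.61. In *Dlk1* those with the label FGL were -0.36 and 0.25. The differences between the days were not tested, since each rests on a single library per treatment and day.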

How the results depend on the processing

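No paired analysis was possible because the replicates that share numbers in the labels are those of the stages, which the stage table combines into 1 value.

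Each stage count of higher or lower genes was recalculated in 7 ways, and the counts not named here stayed within 1.5 times. From ESC to MES, the count of lower genes was 1 with a pseudocount of 0.1 or 0.001 (*Plagl1*), and that of higher genes was 2 with 0.001 or with the highest TSS of each gene. At a limit of 4-fold, 0 were higher in HB than in MES, 0 in HP than in HB and 0 in MAC than in HP, and 4 were lower in MAC. With at least 10 FPKM, 2 were higher in HP than in HB and 4 lower in MAC than in HP. With upper quartile scaling, 0 were higher in MAC.

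In the MEFs, the model without day gave 0 genes that rose with SL. Without the filter on low values, 1 rose with SFGL (*Phlda2*) and 0 rose between the days. Without both libraries labelled FGL, 0 rose and 0 fell between the days, the treatment counts stayed the same, and 5 genes still had all SL and SFGL values below uFIB, as had 36.5% of all genes, a comparison added after seeing the data. Leaving out 1 library at a time gave 0 to 1 genes that rose and 2 to 5 that fell with SL, 0 and 4 to 6 with SFGL, 0 and 0 with the label FGL, and 0 and 0 to 1 between the days. Over all genes, the same omissions gave 0 to 53 genes that rose and 6 to 101 that fell between the days in place of 143 and 172, and omitting both libraries labelled FGL gave 2 and 7, while no filter gave 42 and 51. The SL counts of 3051 and 3245 became 1935 and 1864 without uFIB of day 12, 1713 and 1959 without SL of day 12 and 2005 and 1972 without SL of day 21, and the 2 genes that rose with the label FGL became 0 to 22. With pseudocounts of 0.1 and 0.001, 1141 and 1196 genes in place of 736 were higher and 1227 and 1271 in place of 774 lower in MES than in ESC, and 397 and 414 in place of 258 were higher and 607 and 643 in place of 337 lower in HB than in MES. Upper quartile scaling gave 2094 in place of 3614 genes higher in MAC and 2649 in place of 1499 lower. At 4-fold the counts at the successive steps were 76, 35, 279 and 1548 higher and 112, 53, 241 and 581 lower, and with at least 10 FPKM 367, 115 and 321 were higher at the first 3 steps and 366, 115, 396 and 719 lower at all 4. The causes of these changes were not tested. No difference of a listed gene that passed the threshold changed its direction under any alternative. Among differences that did not pass it, 13 changed sign when 1 library was left out, on log2(FPKM + 1). With SL, *Peg3* ranged from -1.01 to 0.53, and with SFGL *Mest* from -0.17 to 0.54. With the label FGL, the ranges were -0.52 to 0.25 for *Cdkn1c*, -0.14 to 0.33 for *Igf2r*, -0.100 to 0.048 for *Grb10*, -0.56 to 0.40 for *Igf2*, -0.37 to 1.17 for *Peg3*, -0.27 to 0.15 for *Dlk1* and -0.38 to 0.82 for *Plagl1*. Between the days they were -0.018 to 0.28 for *Igf2r*, -0.055 to 0.057 for *Grb10*, -0.094 to 0.34 for *Igf2* and -0.51 to 0.25 for *Peg3*, and without both libraries labelled FGL *Igf2* was at -0.094 and *Peg3* at 0.22. Stage values have no replicate error and an unknown depth, which limits what values under 1 FPKM can show.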
